A study of Mus musculus with 20 samples.

Results

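The 47 genes described here are interferon-stimulated genes, chosen by name, and each had 1 row in both deposited count tables, which hold 55376 genes. They were divided into 40 antiviral genes that respond mainly to type I interferon and 7 genes of the guanylate binding protein (GBP) and immunity-related GTPase (IRG) families. After a filter on low counts, 46 of the 47 were tested in the injury series, where Oas3 was too low, and all 47 were tested in the Plxnd1 comparison. Bulk RNA was sequenced from endothelial cells that had been sorted from sciatic nerves of adult mice. In the injury series the cells carried the R26-TomatoLSL reporter under Cdh5(PAC)-CreERT2, a tamoxifen-type Cre driven in endothelium, on a Plxnd1 wild-type background. They came from uninjured nerve (intact, 5 libraries), from the lesion 7 days after injury (7 dpi, 5 libraries) and from the lesion at 14 days (14 dpi, 4 libraries). In a separate experiment at 7 dpi the cells carried the Kdr-Cherry reporter, and came from mice with endothelial deletion of Plxnd1 by a Cdh5 CreER driver and Plxnd1fl/fl alleles (KO, 3 libraries) or from controls labelled Plxnd1 WT (WT, 3 libraries). Whether those controls carried the Cre or the floxed alleles is not given in the sources used here. Nerves were pooled before sorting, and cells stained for CD45, a leukocyte surface protein, were removed. The injured tissue is named a bridge, which forms across a gap, in the study design, and the injury is named a crush in the sample labels. No label ties a library to an animal, so every p-value here reflects how libraries of a group spread, part of which may be technical.

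Interferons are secreted proteins that warn cells of infection. Type I interferons such as IFN-beta bind the receptor made of IFNAR1 and IFNAR2, and the kinases JAK1 and TYK2 then activate a complex that holds STAT2 and IRF9 and binds interferon-stimulated response elements (ISREs) in promoters. Interferon-gamma acts through its own receptor, JAK1 and JAK2, leads to binding at gamma-activated sites (GAS), and is the stronger inducer of many GBP and IRG genes. Many cells, endothelium included, keep a low level of these transcripts without infection.

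Total counts ran from 19.06 M to 34.18 M per library, and the labels put each library in batch 1133 or 1292, both of which hold every group. Levels are CPM, counts divided by the library's total and scaled by TMM within each experiment. Plxnd1, which encodes the semaphorin receptor Plexin-D1, had 131.1, 161 and 160 CPM in KO libraries, against 351, 325 and 341 CPM in WT libraries, without overlap. Intact replicate 5 stood apart: its TMM factor was 1.32, the highest of the 14, its endothelial markers summed to 6457 CPM, the lowest of the 14, and it was the lowest intact library for 44 of the 46 tested members. The 15 endothelial markers were all detected in every group and summed to 9415 to 14376 CPM at 7 dpi, against 6457 to 15910 CPM in intact libraries. Single markers changed, with 8 higher and 3 lower at 7 dpi (edgeR, adjusted p under 0.05). That was 53.3% and 20%, against 15.7% and 16.3% of all genes tested, and the log2 fold changes ran from -2.33 to 1.03 (median 0.46). The endothelial markers summed to 15313 to 16209 CPM in KO libraries and to 14424 to 15657 CPM in WT libraries. In bulk libraries, fewer cells of a type and less RNA per cell cannot be told apart, and this holds for each result that follows.

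Promoter windows of 300 bases, 250 before and 50 after the annotated start, were at hand for 35 of the 47 genes (RefSeq, GRCm38.p6). An ISRE-like match, GAAANNGAAA read on either strand (TTTCNNTTTC when it lies on the other), stood in 21 of the 35 (60.0%), against 1079 of 27025 genes (3.99%). A GAS-like match, TTCNNNGAA, which reads alike on both strands, stood in 9 of the 35 (25.7%), against 2582 of the 27025 genes (9.55%). Of the 35 genes 7 had more than 1 window, and a gene was counted if any of its windows held a match. Of 6 GBP and IRG genes with a window, 5 held the ISRE-like match and 2 the GAS-like match. Of the genes with a window that fell at 7 dpi, 13 of 22 (59.1%) held the ISRE-like match. Of those not called there 7 of 12 (58.3%) did, and the shares are close to each other. Among the genes higher in KO, 6 of 8 with a window (75.0%) held it, as did 15 of 27 members not called (55.6%). A match is a description of the letters and not a mapped binding site.

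Ifit3 and Ifit3b, which had the most negative fold changes at 7 dpi, are neighbouring near-identical copies on chromosome 19, and their windows at chr19:34583279-34583578 and chr19:34607707-34608006 (plus strand) are shown because both carry the same pair of ISRE-like matches, in capitals, offset by 32 bases. Reads from these genes may be shared between them, so their values are not independent.
Ifit3: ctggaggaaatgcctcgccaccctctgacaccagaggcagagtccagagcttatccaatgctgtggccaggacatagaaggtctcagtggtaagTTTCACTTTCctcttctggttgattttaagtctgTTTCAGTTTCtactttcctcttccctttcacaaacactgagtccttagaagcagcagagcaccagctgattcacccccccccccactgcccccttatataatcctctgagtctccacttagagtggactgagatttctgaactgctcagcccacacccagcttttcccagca
Ifit3b: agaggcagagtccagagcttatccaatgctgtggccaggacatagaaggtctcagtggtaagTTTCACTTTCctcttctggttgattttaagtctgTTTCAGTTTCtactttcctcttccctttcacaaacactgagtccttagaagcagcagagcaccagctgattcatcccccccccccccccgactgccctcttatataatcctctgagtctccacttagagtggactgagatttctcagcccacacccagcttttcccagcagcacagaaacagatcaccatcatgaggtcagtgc

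Isg15 is shown for a run of 3 ISRE-like matches, each overlapping the next (chr4:156200769-156201068, minus strand). It was chosen after its values were seen.
Isg15: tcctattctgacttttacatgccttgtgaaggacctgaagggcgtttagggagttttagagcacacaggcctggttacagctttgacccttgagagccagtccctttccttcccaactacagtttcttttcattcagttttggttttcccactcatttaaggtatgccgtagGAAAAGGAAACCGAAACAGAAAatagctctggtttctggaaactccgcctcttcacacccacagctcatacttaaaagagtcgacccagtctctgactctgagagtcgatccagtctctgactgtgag

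Gbp2 is shown as 1 of the guanylate binding genes, with 1 ISRE-like match (chr3:142620413-142620712, plus strand). Igtp is shown as 1 of the IRG genes, with a GAS-like match followed closely by an ISRE-like match (chr11:58199306-58199605, plus strand). Windows differed within each family. Gbp7 held 1 ISRE-like and 2 GAS-like matches, Irgm1 held 2 ISRE-like matches and no GAS-like match, and Ifi47 held neither. The first of 2 Irf1 windows (chr11:53769764-53770063, plus strand) held a GAS-like match and no ISRE-like match, and is shown beside the 2 GTPase genes for contrast.
Gbp2: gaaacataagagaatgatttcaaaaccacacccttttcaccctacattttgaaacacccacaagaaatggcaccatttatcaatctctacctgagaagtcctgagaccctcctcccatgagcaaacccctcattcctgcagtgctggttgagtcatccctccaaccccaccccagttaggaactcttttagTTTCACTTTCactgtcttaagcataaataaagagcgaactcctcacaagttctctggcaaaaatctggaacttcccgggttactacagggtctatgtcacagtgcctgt
Igtp: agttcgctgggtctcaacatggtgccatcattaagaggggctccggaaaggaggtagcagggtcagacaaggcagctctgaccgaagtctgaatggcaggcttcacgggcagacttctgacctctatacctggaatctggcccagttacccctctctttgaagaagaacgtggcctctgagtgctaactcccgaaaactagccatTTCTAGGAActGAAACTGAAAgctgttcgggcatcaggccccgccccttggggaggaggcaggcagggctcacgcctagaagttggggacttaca
Irf1: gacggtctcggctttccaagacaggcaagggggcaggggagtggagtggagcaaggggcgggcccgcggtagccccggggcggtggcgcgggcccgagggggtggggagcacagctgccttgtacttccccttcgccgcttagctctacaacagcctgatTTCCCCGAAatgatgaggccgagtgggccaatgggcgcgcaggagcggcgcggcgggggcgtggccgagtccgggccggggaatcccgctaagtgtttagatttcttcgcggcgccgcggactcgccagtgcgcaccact

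At 7 dpi, 27 of the 46 tested members (58.7%) fell against intact nerve and none rose (edgeR quasi-likelihood test, Benjamini-Hochberg adjusted p under 0.05). Of all 20409 genes tested, 16.3% were called lower and 15.7% higher. At an unadjusted p under 0.05, 1 member, Ddx58, was higher, and DESeq2 called 0 higher and 28 lower. Over all genes, 3993 were higher at that unadjusted threshold, and DESeq2 called 3695 higher and 3915 lower. The members' median log2 fold change was -0.58, against -0.10 over all genes. Of the antiviral genes 22 of 39 fell (median -0.54), and of the GBP and IRG genes 5 of 7 fell (median -0.83). The difference between the 2 classes was not tested. In 10 of the 46 every 7 dpi library lay below every intact library, which held for 10.6% of all genes tested, and in the other 36 the groups overlapped.

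The antiviral effectors include the IFIT proteins, which bind foreign RNA ends, the OAS enzymes, which sense double-stranded RNA, and Rsad2, which encodes viperin. In this group 16 of 26 tested genes fell, and Ifit1, Ifit3 and Ifit3b had the most negative fold changes. Ifit1 had 18.1, 36.8, 28.5, 27.4 and 18.8 CPM at 7 dpi, against 140, 154.4, 107, 148.3 and 66.2 CPM in intact libraries. Each 7 dpi library was below the lowest intact library, and the log2 fold change was -2.25 (SE 0.25, adjusted p = 4.1e-06). Ifit3 had 15.3, 21.4, 19.5, 24.3 and 9.80 CPM at 7 dpi, against 117, 107, 85.9, 112 and 57.6 CPM in intact libraries, again with no overlap (log2 fold change -2.40, SE 0.26, adjusted p = 2.2e-06). Its copy Ifit3b had 4.65, 8.02, 10.7, 7.04 and 3.90 CPM at 7 dpi, against 38.8, 45.7, 29.9, 34.4 and 18.4 CPM in intact libraries, with no overlap and a log2 fold change of -2.28 (SE 0.25). Ifit2 had 20.3, 16.3, 19.9, 19.98 and 17.9 CPM at 7 dpi, against 87.1, 74.8, 80.5, 59.9 and 45.6 CPM in intact libraries, also with no overlap.

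Rsad2 had 37.2, 47.1, 57.6, 26.1 and 27.2 CPM at 7 dpi, against 159, 216, 159, 131.4 and 73.7 CPM in intact libraries (log2 fold change -1.92, SE 0.19). The groups did not overlap. Cmpk2, its neighbour on chromosome 12, which encodes a mitochondrial nucleotide kinase, fell by 1.09 on the log2 scale. Apol9b, an apolipoprotein L gene, had 2.04, 5.21, 5.37, 2.33 and 2.01 CPM at 7 dpi, against 14.6, 19.3, 10.2, 14.1 and 7.34 CPM in intact libraries, and its near-identical copy Apol9a fell by 1.66. Both Apol9 genes were low, and reads may be shared between them. Ifitm1, a membrane protein that blocks viral entry, fell by 1.69, while its relative Ifitm3 had 1612 ± 169 CPM at 7 dpi and 1448 ± 423 CPM in intact libraries (SD, n = 5 each) and a log2 fold change of 0.15. Whether the 2 genes differ in their change was not tested.

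Mx2, Oasl1, Ifi27l2a, Ifi35, Xaf1, Oasl2 and Samhd1 fell by 0.42 to 1.22 on the log2 scale. Samhd1, a nucleotide hydrolase, and Ifi27l2a stood just inside the threshold (adjusted p = 0.049 each), and Trim30a stood just outside it (log2 fold change -0.42, adjusted p = 0.0642). Samhd1 had 59.0, 64.4, 65.1, 48.9 and 43.4 CPM at 7 dpi, against 91.0, 107, 73.0, 70.2 and 40.3 CPM in intact libraries, and intact replicate 5 was below all 7 dpi libraries. The 3 antiviral genes with the highest intact level per kilobase were not among those that fell. Per kilobase of gene model, Ifitm3 averaged 2378 CPM at 7 dpi and 2136 CPM in intact libraries, Ly6e 770 and 761 CPM, and Bst2, which encodes tetherin, 347 and 285 CPM. Ifi44, Rtp4, Oas1a, Oas1g, Oas2 and Mx1 were not called either, and Mx1 and Oas1g averaged under 2 CPM.

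**Figure D1:**
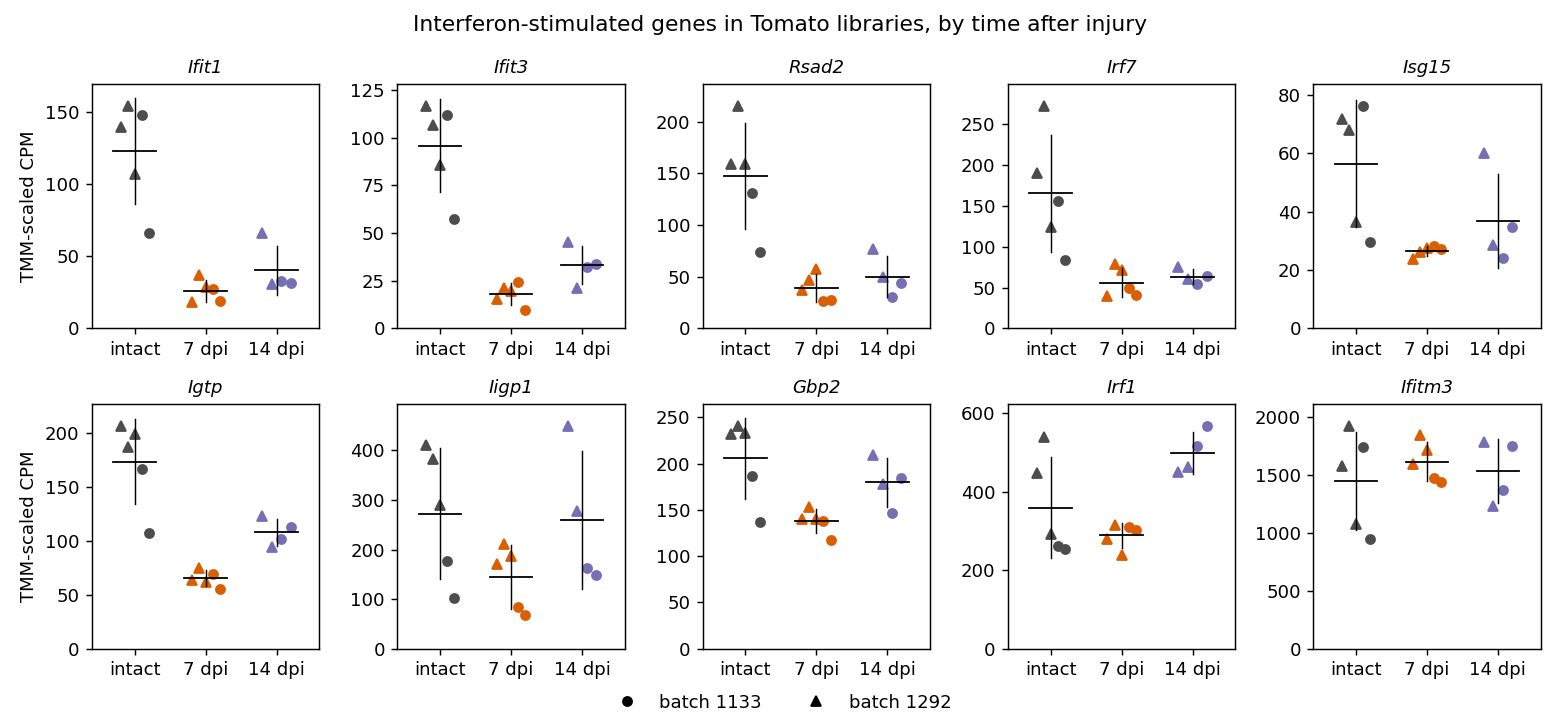
Level of 10 members in each Tomato library, in TMM-scaled CPM on linear axes that start at 0, for intact, 7 dpi and 14 dpi; bars are the group mean and SD (n = 5, 5 and 4), and symbols give the batch. Ifit1, Ifit3, Rsad2, Irf7, Isg15 and Igtp show every 7 dpi library below every intact library, and Ifitm3 shows overlap of all 3 groups.

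ISG15 is a ubiquitin-like protein and USP18 the protease that removes it and dampens the interferon receptor; Parp9 and Dtx3l form a ligase pair. Isg15 had 23.9, 26.1, 27.5, 28.2 and 27.2 CPM at 7 dpi, against 71.9, 68.0, 36.4, 76.3 and 29.6 CPM in intact libraries. The 7 dpi libraries were close to each other, and all were below the lowest intact library, by a small margin (log2 fold change -1.08, SE 0.26, adjusted p = 0.00451). Usp18 had 24.6, 35.6, 32.6, 18.5 and 20.7 CPM at 7 dpi, against 53.8, 65.2, 43.3, 47.3 and 24.1 CPM in intact libraries, and fell by 0.83. Parp9, Dtx3l and Parp14 were not called, with log2 fold changes of 0.09, 0.01 and -0.22. Parp9 and Dtx3l are divergent genes whose models overlap in the deposited coordinates, so they may share reads.

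Of the 4 nucleic acid sensors, Ifih1, which encodes the RNA sensor MDA5, and Zbp1, a sensor of Z-form nucleic acid, fell. Ifih1 had 30.8, 39.2, 47.5, 30.7 and 24.4 CPM at 7 dpi, against 63.9, 67.3, 66.0, 45.5 and 38.5 CPM in intact libraries (log2 fold change -0.69, SE 0.14). The groups overlapped through intact replicates 4 and 5. Ddx58, which encodes the related sensor RIG-I, had 79.3, 69.1, 101, 74.8 and 69.8 CPM at 7 dpi, against 70.3, 81.8, 81.8, 51.9 and 44.3 CPM in intact libraries, and was not called (log2 fold change 0.29, adjusted p = 0.110). Dhx58, which encodes LGP2, a regulator of both sensors, was not called either (0.22).

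Among the transcription factors, Irf7, which drives the second wave of type I interferon genes, had 39.5, 78.9, 71.7, 49.9 and 40.8 CPM at 7 dpi, against 190.8, 273, 124, 156 and 83.9 CPM in intact libraries. The groups did not overlap, and the log2 fold change was -1.54 (SE 0.24, adjusted p = 8.2e-05). Stat2 fell by 0.53. Irf9, the DNA-binding part of the same complex, was not called (log2 fold change -0.11), nor was Irf1 (-0.30), which responds to interferon-gamma and to other signals.

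All 7 GBP and IRG genes had negative fold changes at 7 dpi, from -1.40 to -0.25, where 11291 of all 20409 genes tested were negative. GTPases of these families act in defence against intracellular pathogens. Igtp, also named Irgm3, had 63.8, 75.0, 61.8, 68.8 and 55.2 CPM at 7 dpi, against 206, 187, 199, 167 and 107 CPM in intact libraries, with no overlap (log2 fold change -1.40, SE 0.15, adjusted p = 2.3e-06). Gbp2 had 140, 153.5, 141, 138 and 117 CPM at 7 dpi, against 232, 241, 233, 186 and 137 CPM in intact libraries, and only intact replicate 5 lay within the 7 dpi range (log2 fold change -0.56, SE 0.13, adjusted p = 0.00285). Gbp3 had 87.7, 111, 137, 86.0 and 70.7 CPM at 7 dpi, against 241, 212, 205, 153.9 and 94.9 CPM in intact libraries, and Gbp7 fell by a like amount (log2 fold changes -0.85 and -0.83). Iigp1 fell by 0.91. Irgm1 had 96.4, 117, 108, 103 and 82.4 CPM at 7 dpi, against 157, 173, 106, 115 and 67.3 CPM in intact libraries, and neither it (log2 fold change -0.25) nor Ifi47 (-0.47) was called.

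Markers of other cells differed between these groups. The 8 perineurial markers, of which Slc2a1 is also made by barrier endothelium, summed to 609 to 1370 CPM at 7 dpi and to 4700 to 7554 CPM in intact libraries, and 7 of the 8 fell. Macrophage markers summed to 59.3 to 363 CPM at 7 dpi and to 30.1 to 49.9 CPM in intact libraries. Of the Schwann cell markers 6 of 9 fell (sums of 155 to 242 CPM at 7 dpi and 504 to 940 CPM in intact libraries), of the mural markers 6 of 9 fell, and all 5 erythrocyte markers fell (median log2 fold change -2.01). Fibroblast markers summed to 6298 to 21190 CPM at 7 dpi and to 10162 to 17155 CPM in intact libraries, ranges that overlap those of the endothelial sums, and 6 of the 10 rose. Y-linked genes summed to 216, 0, 0, 0 and 0.0291 CPM at 7 dpi, against 40.1, 109, 240, 164 and 118 CPM in intact libraries. The sex makeup of the pools thus differed, and only 7 dpi replicate 1 had a sum in the range of intact libraries. In batch 1133 both intact libraries had Y-linked counts and the 7 dpi libraries had at most 0.0291 CPM. Sex and injury cannot be told apart there. With the perineurial mean as a covariate, which does not overlap between the 2 groups, 4 members stayed lower (Ifit2, Ifit3b, Rsad2 and Apol9b), the call rate over all genes also dropped, to 229 genes lower, and the members' median was -0.65. With the Y-linked mean the median was -0.82, with the macrophage mean -0.63, and with the endothelial mean, an alternative chosen after seeing the data, -0.73 with 30 members lower. Within batch 1292 alone the median was -0.73. Within batch 1133 alone, which holds 2 intact and 2 7 dpi libraries, it was -0.55 and 8 members were lower. In that fit 926 of 24119 genes were lower, against 3333 of 20409 in the main fit. Without intact replicate 5, 30 members were lower. What part the other cells have in these differences was not tested beyond those fits.

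At 14 dpi, 11 of 46 members (23.9%) were still lower than in intact nerve and none was higher, where 5.09% of all genes were called lower and 6.86% higher. At an unadjusted p under 0.05, 1 member, Irf1, was higher, and DESeq2 called 0 higher and 18 lower. Over all genes, 2693 were higher at that unadjusted threshold, and DESeq2 called 1905 higher and 1718 lower. The stricter low-count filter gave 17 lower, with 1543 of 13803 genes lower, and batch 1133 alone 1, with 179 of 24119 genes lower. All 11 were among the 27 that fell at 7 dpi, and both comparisons use the same intact libraries. They were Ifit1, Ifit2, Ifit3, Ifit3b, Oasl1, Rsad2, Cmpk2, Apol9a, Apol9b, Irf7 and Igtp, so 10 of the 39 tested antiviral genes and 1 of the 7 GBP and IRG genes. The members' median was -0.30, against 0.00 over all genes. Perineurial markers summed to 1769 to 3921 CPM at 14 dpi and to 4700 to 7554 CPM in intact libraries, without overlap. Of the fibroblast markers 8 of 10 rose, with sums of 17760 to 36686 CPM at 14 dpi and 10162 to 17155 CPM in intact libraries, and 5 of 9 Schwann cell markers rose. Endothelial markers summed to 8420 to 10099 CPM at 14 dpi, so in every 14 dpi library the fibroblast sum was above the endothelial sum. With the perineurial mean as a covariate 9 members were lower, and the part of fibroblasts and Schwann cells was not tested. Y-linked genes summed to 268, 182, 0 and 0 CPM at 14 dpi, with 0 in both libraries of batch 1133. With the Y-linked mean as a covariate 12 members were lower.

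Ifit1 had 65.8, 31.0, 33.0 and 31.2 CPM at 14 dpi, against 140, 154.4, 107, 148.3 and 66.2 CPM in intact libraries. Every 14 dpi library was below every intact library, although 14 dpi replicate 1 nearly met intact replicate 5 (log2 fold change -1.59, SE 0.27, adjusted p = 0.00069). Rsad2 had 76.9, 50.0, 30.4 and 43.5 CPM at 14 dpi, against the 73.7 to 216 CPM of intact libraries, and 14 dpi replicate 1 overlapped them (log2 fold change -1.48, SE 0.20). Irf7 had 75.2, 60.0, 54.0 and 64.0 CPM at 14 dpi, below all intact libraries (log2 fold change -1.30, SE 0.25). In 6 of the 46 tested members every 14 dpi library lay below every intact library, which held for 4.73% of all genes tested. Apol9a had the most negative fold change (-1.97, SE 0.43), on levels of 1.25, 1.96, 0.361 and 1.08 CPM at 14 dpi, against 5.43, 3.72, 5.33, 5.61 and 2.24 CPM in intact libraries. Cmpk2 stood just inside the threshold (adjusted p = 0.0493) and Gbp7 just outside it (log2 fold change -0.46, adjusted p = 0.0526). In the class means, the mean log2(CPM + 1) of the antiviral genes was 5.63 ± 0.43 in intact libraries, 4.98 ± 0.24 at 7 dpi and 5.18 ± 0.23 at 14 dpi (SD, n = 5, 5 and 4). That of the GBP and IRG genes was 7.36 ± 0.54, 6.63 ± 0.27 and 7.09 ± 0.36 in the same order.

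**Figure D2:**
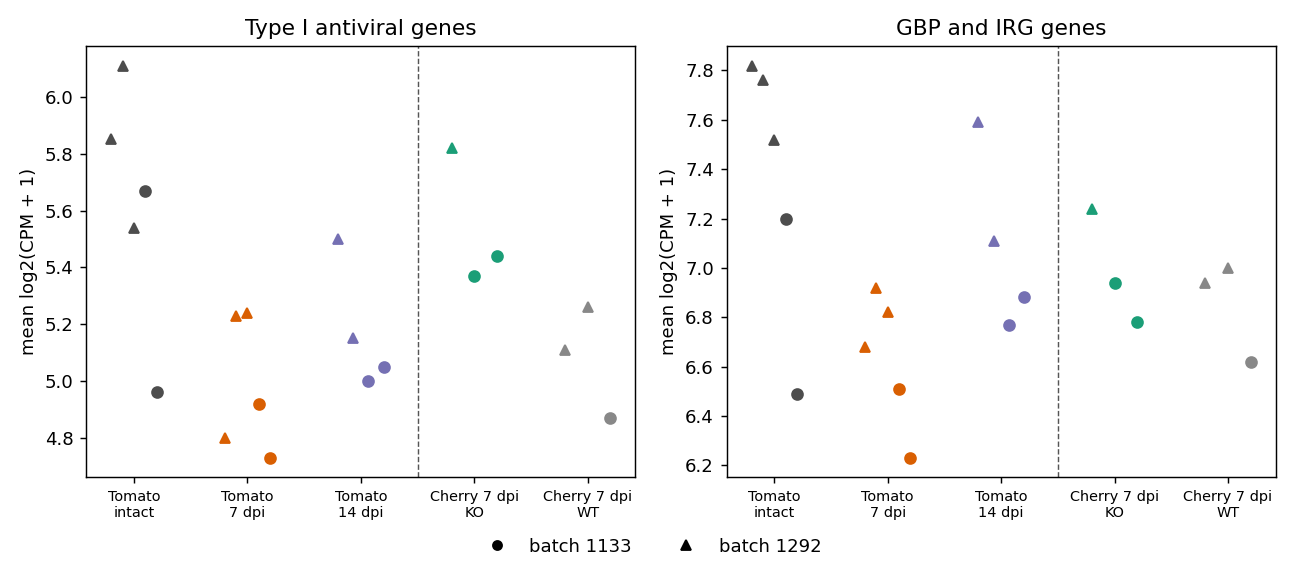
Mean log2(CPM + 1) of the 40 antiviral genes (left) and the 7 GBP and IRG genes (right) in each library; the dashed line parts the Tomato and Cherry experiments, which were normalized separately, and symbols give the batch. Intact replicate 5 is the lowest intact library in both panels, and the 3 KO libraries lie above the 3 WT libraries for the antiviral genes but not for the GBP and IRG genes.

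Between the 2 times after injury, 5 of 46 members (10.9%) were higher at 14 dpi than at 7 dpi and none was lower, where 5.73% of all genes were called higher and 4.2% lower. No member was lower at an unadjusted p under 0.05 or by DESeq2, where 1863 and 1555 of all genes were lower. The 5 were Iigp1, Ifit3, Irf1, Igtp and Ifit2. Irf1 had 450, 464, 518 and 568 CPM at 14 dpi, against 279, 314, 238, 311 and 303 CPM at 7 dpi, with no overlap (log2 fold change 0.81, SE 0.21, adjusted p = 0.0191). Igtp had 123, 94.2, 101 and 112 CPM at 14 dpi, all above the 55.2 to 75.0 CPM of 7 dpi libraries (log2 fold change 0.76, SE 0.16). Iigp1 had 449, 278, 162 and 149 CPM at 14 dpi, against 171, 210, 187, 83.7 and 67.2 CPM at 7 dpi. Its libraries overlapped between the times, and batch 1292 lay above batch 1133 at both times. The fold change with batch in the model was 0.99 (SE 0.18, adjusted p = 0.00216). All 7 GBP and IRG genes had positive fold changes (median 0.41), as did 27 of the 39 tested antiviral genes (median 0.24). Over all 20409 genes, 11242 were positive (median 0.06). In 2 of the 46 members every 14 dpi library lay above every 7 dpi library, which held for 5.04% of all genes tested.

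The number of these calls depended on the fit. DESeq2 and the stricter low-count filter gave 11 higher each, no filter and the 2 groups alone 9 each, and RLE factors and library size alone 8 each. Over all genes, DESeq2 called 1700 higher and the stricter filter 1637. Without the batch term 2 members were higher, without 14 dpi replicate 3 there were 2 and without 14 dpi replicate 4 there were 3. With the perineurial mean as a covariate no member was higher, where only 25 of 20409 genes were, against 1170 in the main fit. In batch 1133 alone, with 2 libraries a group, 0 members and 264 of 24119 genes were higher. Perineurial markers at 14 dpi were above the 609 to 1370 CPM of 7 dpi libraries, and 6 of 9 Schwann cell, 4 of 10 fibroblast and 5 of 5 erythrocyte markers rose. 14 dpi replicate 3 had a macrophage marker sum of 1184 CPM, against 40.2 to 65.6 CPM in the other 14 dpi libraries. Y-linked genes summed to 268, 182, 0 and 0 CPM at 14 dpi, against 216, 0, 0, 0 and 0.0291 CPM at 7 dpi. With the Y-linked mean as a covariate 6 members were higher.

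In Plxnd1 KO cells at 7 dpi, 11 of 47 members (23.4%) were higher than in WT cells and none was lower. Of all 17673 genes tested only 0.119%, 21 genes, were called higher and 0.158% lower, so the members were 11 of the 21 genes called higher (52.4%). At an unadjusted p under 0.05, 1 member, Irf1, was lower and 33 were higher, and DESeq2 called 0 lower and 22 higher. Over all genes, 916 of 17673 were lower and 996 higher at that unadjusted threshold. DESeq2 called 120 lower and 122 higher of 12191 genes. All 11 were antiviral genes, namely Ifit1, Ifit3, Oas1a, Oasl1, Rsad2, Ifi27l2a, Apol9a, Isg15, Usp18, Zbp1 and Irf7. Rsad2 stood just inside the edgeR threshold (log2 fold change 0.85, SE 0.15, adjusted p = 0.0482). It had 98.97, 51.5 and 55.2 CPM in KO libraries, against 39.4, 45.9 and 38.4 CPM in WT libraries. Its call was kept in 6 of 18 alternative fits, and was lost with RLE factors and with library size alone. Bst2 stood just outside (0.67, adjusted p = 0.0637). Of the 47, 45 had a positive fold change, with a median of 0.46 against -0.01 over all genes. Over all 17673 genes, 8705 were positive.

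Isg15 had 81.7, 49.4 and 53.6 CPM in KO libraries, against 35.0, 43.0 and 27.8 CPM in WT libraries. Every KO library was above every WT library, and the log2 fold change was 0.98 (SE 0.13, adjusted p = 0.00846). Usp18 had 84.9, 45.3 and 44.9 CPM in KO libraries, against 41.6, 44.9 and 27.2 CPM in WT libraries, where the lowest KO and highest WT libraries met (log2 fold change 0.85, SE 0.12, adjusted p = 0.0105). Ifit1 had 64.7, 37.0 and 35.3 CPM in KO libraries, against 28.3, 25.8 and 22.6 CPM in WT libraries (log2 fold change 0.97, SE 0.15). Ifit3 had 55.3, 25.97 and 25.3 CPM in KO libraries, against 21.5, 19.2 and 14.1 CPM in WT libraries (log2 fold change 1.16, SE 0.16). Neither Ifit gene overlapped between the genotypes, and for both KO replicate 1 was far above the other libraries.

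Oasl1, a regulator of Irf7 translation in mouse, had 37.0, 23.9 and 16.8 CPM in KO libraries, against 10.9, 17.4 and 6.99 CPM in WT libraries (log2 fold change 1.46, SE 0.22, adjusted p = 0.0156). Zbp1 had 26.9, 18.4 and 17 CPM in KO libraries, against 11.3, 13.7 and 5.56 CPM in WT libraries (log2 fold change 1.37, SE 0.20, adjusted p = 0.013). Oas1a had 55.7, 48.0 and 41.9 CPM in KO libraries, against 29.1, 31.2 and 20.96 CPM in WT libraries (log2 fold change 0.99, SE 0.13). Oas1a and Zbp1 did not overlap between the genotypes, while Oasl1 did. Irf7 had 136, 113 and 116 CPM in KO libraries, against 93.0, 99.5 and 60.6 CPM in WT libraries, with no overlap (log2 fold change 0.71, SE 0.12, adjusted p = 0.0286). Apol9a had the greatest fold change (2.44, SE 0.39) on low levels of 7.16, 4.06 and 5.07 CPM in KO libraries, against 1.68, 2.03 and 0.528 CPM in WT libraries. Ifi27l2a had 70.6, 19.05 and 20.2 CPM in KO libraries, against 19.9, 29.9 and 8.08 CPM in WT libraries. Its genotypes overlapped, and the call (log2 fold change 1.40, adjusted p = 0.00735) was lost without the batch term.

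None of the 7 GBP and IRG genes was called in KO cells, 3 had an unadjusted p under 0.05, and DESeq2 called 3 higher. Their median log2 fold change was 0.20, against 0.58 for the 40 antiviral genes. Whether the 2 classes differ was not tested. Gbp2 averaged 176 ± 20.1 CPM in KO libraries and 168 ± 7.37 CPM in WT libraries (SD, n = 3 each; log2 fold change 0.10, SE 0.11). Gbp3 had 149, 129 and 122 CPM in KO libraries, against 126, 141 and 105 CPM in WT libraries, and the genotypes overlapped (log2 fold change 0.20, SE 0.10). Igtp had 97.8, 76.0 and 61.8 CPM in KO libraries, against 50.8, 61.9 and 52.1 CPM in WT libraries, and its fold change of 0.60 (SE 0.14) missed the threshold (adjusted p = 0.137). Iigp1 (-0.06) and Irf1 (-0.34) were the 2 members with a negative fold change. Irf1 had 207, 297 and 222 CPM in KO libraries, against 236, 234 and 366 CPM in WT libraries.

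**Figure D3:**
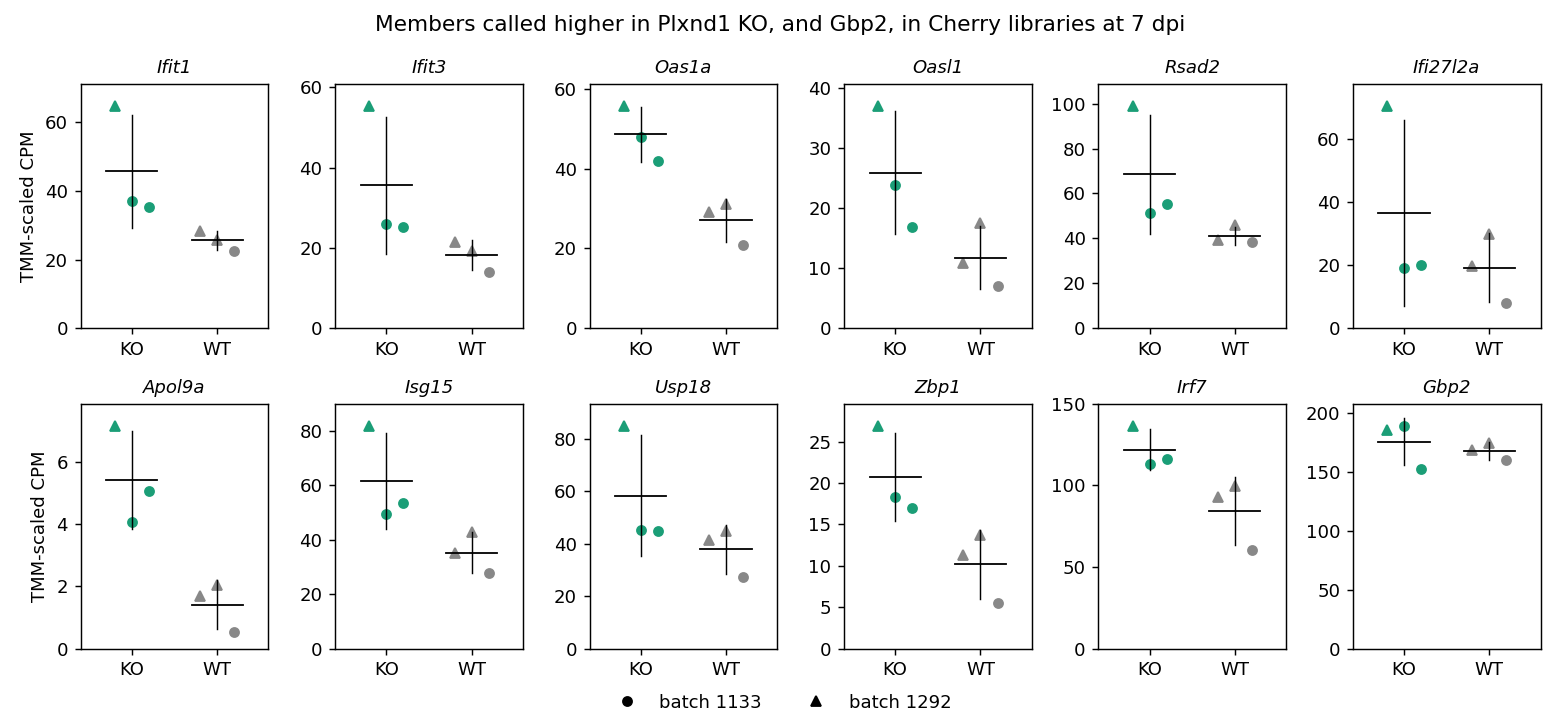
Level of the 11 members called higher in KO, and of Gbp2, in each Cherry library at 7 dpi, in TMM-scaled CPM on linear axes that start at 0, with KO left of WT; bars are the group mean and SD (n = 3 each), and symbols give the batch. KO replicate 1, the only KO library of batch 1292, is the highest library for all 11, and WT replicate 3, the only WT library of batch 1133, is the lowest.

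The 6 Cherry libraries divide unevenly over the batches, with 1 KO and 2 WT libraries in batch 1292 and 2 KO and 1 WT libraries in batch 1133. In 41 of 47 members KO was above WT within each batch (difference of mean log2(CPM + 1)), which held for 28.6% of all genes tested. For Isg15 the difference was 1.06 in batch 1292 and 0.87 in batch 1133, and for Oas1a it was 0.87 and 1.06. All 3 KO libraries lay above all 3 WT libraries in 16 members, against 5.39% of all genes, and below them in none. The number of calls was less stable than the direction. Without KO replicate 3 no member was called, without KO replicate 1 there were 2, without WT replicate 1 there were 4 and without WT replicate 3 there were 6. Over all genes, 3, 11, 10 and 25 were called higher in these fits, in that order, against 21 in the main fit. Without a batch term, or with the Y-linked mean as a covariate, there were 0 members, where 3 and 7 of all 17673 genes were called higher. Within batch 1133 alone 6 were called and within batch 1292 alone 6, each resting on 1 library on a side. The authors' batch-corrected counts gave 24, with 221 of 17663 genes called higher, and no low-count filter gave 19, with 86 of 43212. The members' median lay between 0.38 and 0.51 in each of these fits. Y-linked genes summed to 80.3 to 107 CPM in KO libraries and to 73.7 to 78.5 CPM in WT libraries, without overlap. Macrophage markers summed to 42.4 to 71.8 CPM in KO libraries and to 77.2 to 93.4 CPM in WT libraries, and perineurial markers to 260 to 313 CPM in KO libraries and to 444 to 472 CPM in WT libraries. Of the 6 tested perineurial markers 1 was called lower by edgeR, where 0.158% of all genes were, and all 6 had negative fold changes. All 9 Schwann cell markers had negative fold changes, with none called by edgeR, 3 lower at an unadjusted p under 0.05 and 2 by DESeq2. The part of these differences in the results was not tested further.

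The 2 experiments share no library, so the fold changes can be set side by side. Of the 11 members higher in KO, 10 were among the 27 that fell at 7 dpi, so 90.9% of the KO list and 37.0% of the injury list, where 58.7% of all tested members had fallen. Oas1a was the exception, with a log2 fold change of 0.17 at 7 dpi. The size of the changes went together only loosely, with a Spearman rho of -0.32 and a Pearson r of -0.37 across the 46 genes, which are not independent of each other. Ifitm1 and Ifit2 fell at 7 dpi by 1.69 and 1.85, and had log2 fold changes of 0.02 and 0.35 in KO.

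**Figure D4:**
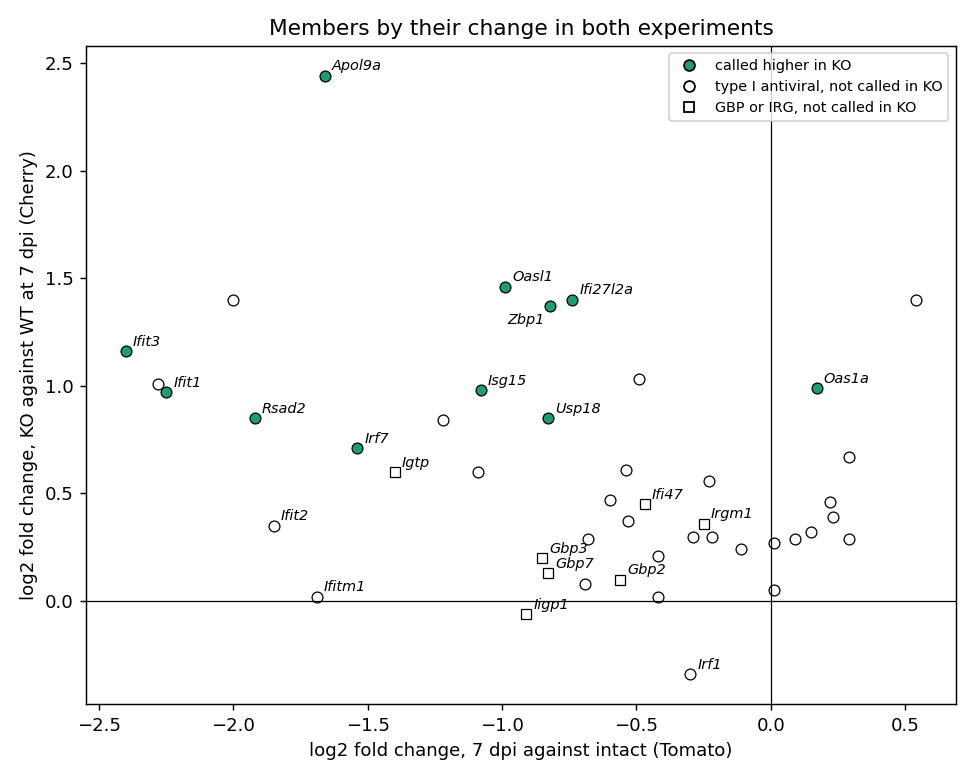
Log2 fold change of 46 members at 7 dpi against intact (horizontal, Tomato) and in KO against WT (vertical, Cherry); filled points were called higher in KO, and squares are GBP and IRG genes. Points lie mostly left of 0 on the horizontal axis and above 0 on the vertical axis, and Oas1a is the only filled point right of 0 on the horizontal axis.

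Genes of the pathway that lead to these transcripts moved in several directions. None of the 11 interferon genes listed passed the low-count filter in either experiment. Ifnb1 was at most 0.395 CPM and Ifng at most 0.0519 CPM in any library. Of the 6 receptor genes, Ifngr2, a chain of the interferon-gamma receptor, rose at 7 dpi against intact (log2 fold change 0.47, adjusted p = 0.0266) and Il10rb, a chain shared with the interleukin-10 and type III interferon receptors, fell by 1.06. Ifnar1, Ifnar2 and Ifngr1 were not called (0.08, -0.18 and 0.34, with adjusted p = 0.0504 for Ifngr1). The kinases Jak1 and Jak2 rose (1.00 and 1.08), as did Irf8 (1.66). Tmem173, which encodes the adaptor STING, rose by 1.48 and Mavs, the adaptor of the RNA sensors, fell by 0.69.

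Socs1 encodes a feedback inhibitor of JAK kinases that interferon-gamma induces. It had 19.3, 14.5, 12.7, 22.9 and 19.1 CPM at 7 dpi, against 34.7, 32.6, 29.7, 39.6 and 25.1 CPM in intact libraries, with no overlap (log2 fold change -0.89, SE 0.18). At 14 dpi it had 29.8, 46.8, 51.5 and 35.6 CPM, above every 7 dpi library (log2 fold change 1.20, SE 0.19, adjusted p = 7.9e-04). In KO cells none of the receptor, kinase or inhibitor genes was called by edgeR, and DESeq2 called none in these 3 lists. At an unadjusted p under 0.05, 2 genes of the list of kinases and transcription factors were higher and 1 inhibitor gene was lower.

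Of 35 tested interferon-responsive genes outside the 47, 13 (37.1%) fell and 3 (8.57%) rose at 7 dpi, against 16.3% and 15.7% of all genes tested. Those that fell included further GTPase genes, among them Gbp5 (log2 fold change -2.31, SE 0.23), Gbp4 (-1.43) and Tgtp2 (-1.51), and Gbp10, which was under 6 CPM throughout (-3.22). Gbp5 had 4.75, 3.39, 3.46, 3.44 and 5.12 CPM at 7 dpi, against 30.0, 17.6, 15.2, 22.4 and 15.4 CPM in intact libraries, without overlap. The 3 that rose were Ifi204, a DNA sensor gene of the PYHIN family (2.34), and the chemokine genes Cxcl9 (1.00) and Cxcl10 (1.17), which remained higher at 14 dpi (2.08, 1.56 and 1.46). In KO cells none of the 35 was called by edgeR. At an unadjusted p under 0.05, 12 were higher, where 996 of all 17673 genes were, and DESeq2 called 2 higher, where it called 122 of 12191. Of the 35, 30 had a positive fold change, and their median was 0.30, against -0.01 over all genes.

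**Figure D5:**
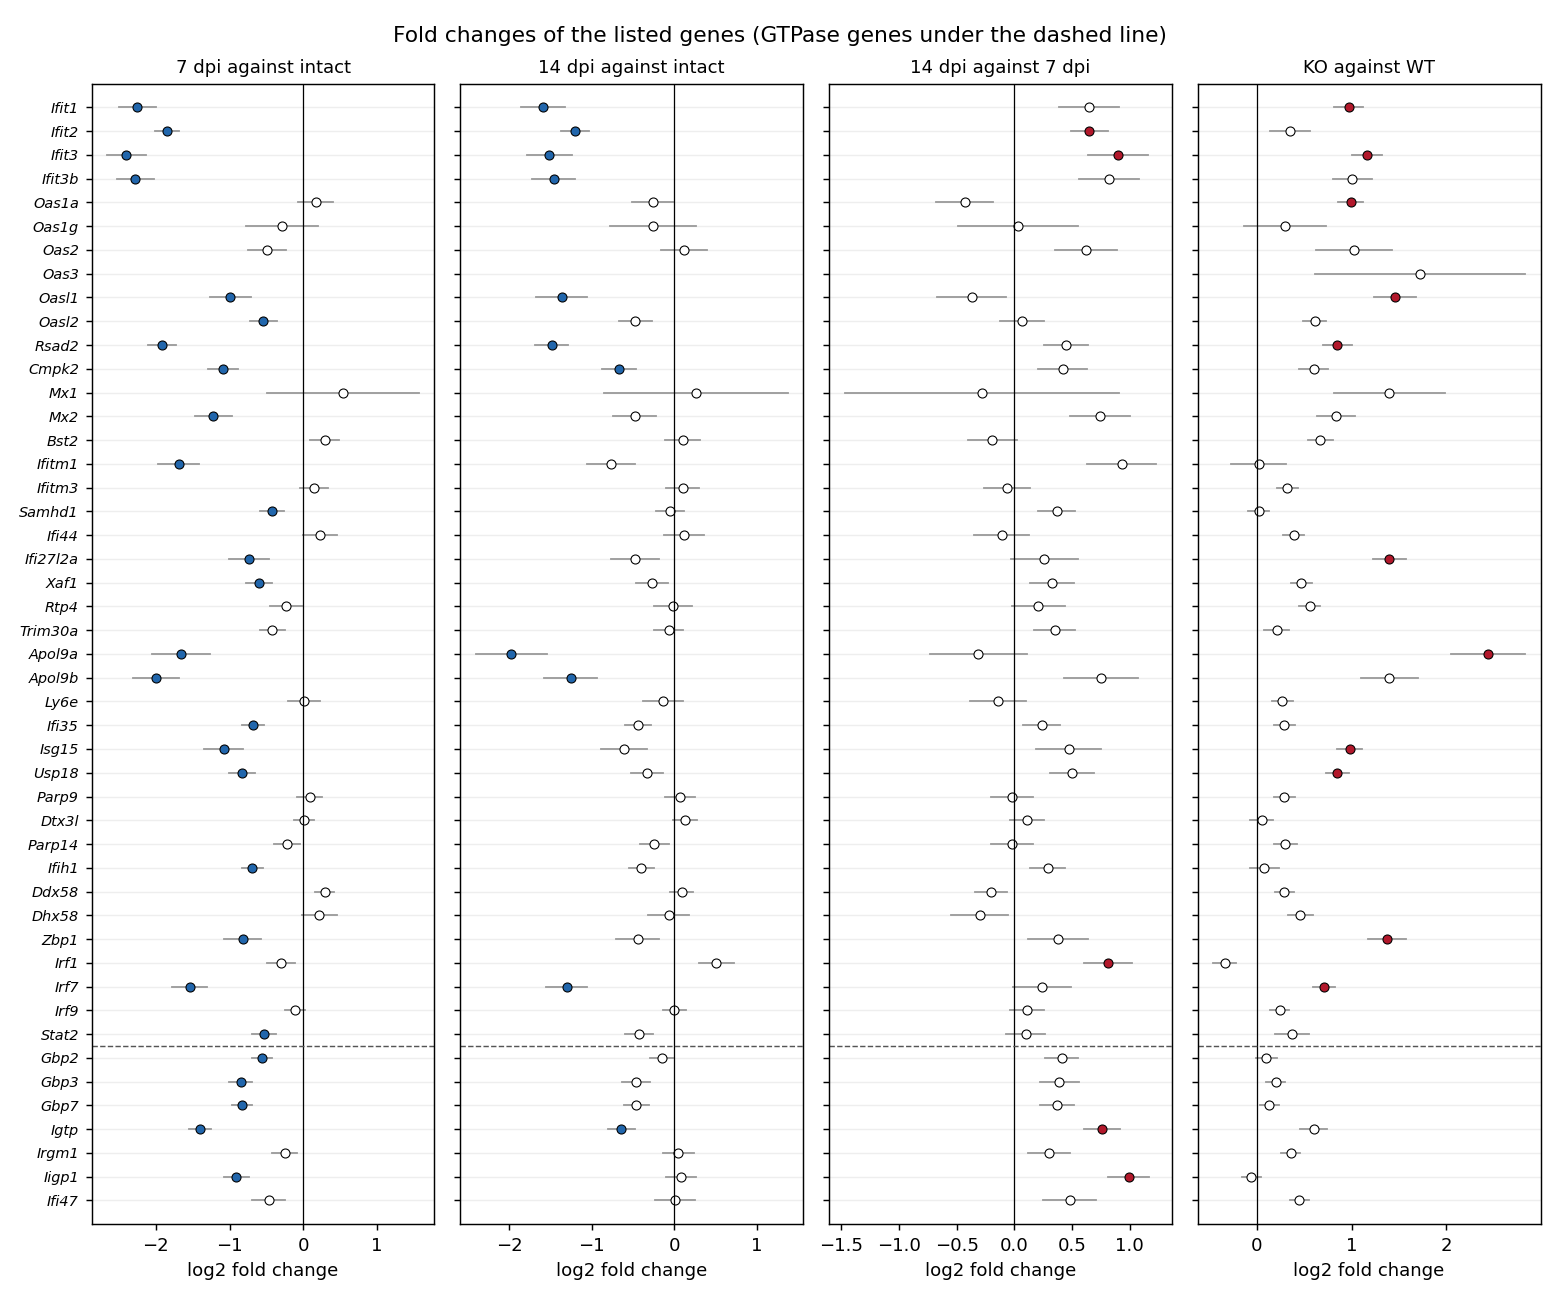
Log2 fold change of each member in the 4 comparisons, with bars of 1 SE to each side; blue points were called lower, red points higher and white points not called, and the 7 GBP and IRG genes stand under the dashed line. There are 27 blue points at 7 dpi and 11 at 14 dpi against intact, and red points appear only in the other 2 panels, 5 at 14 dpi against 7 dpi and 11 in KO. Oas3 was tested only in KO against WT.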

How the data were processed

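Endothelial RNA of 20 libraries was measured by bulk polyA sequencing. The authors deposited raw read counts (whole numbers for each gene), with 1 table for the 14 Tomato libraries and 1 for the 6 Cherry libraries. A further table of Cherry counts was corrected for batch by the authors with ComBat-Seq, and was used as an alternative. The submitters' processing notes list featureCounts 1.6.4, STAR 2.5.3a, Trimmomatic 0.39, Cell Ranger 3.0.2 and build mm10 (GRCm38). Strand setting, annotation release and the handling of multi-mapped reads are not given there, so near-identical, overlapping and antisense genes may share reads.

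The test was the robust quasi-likelihood F test of edgeR 4.0.16 (R 4.3.3) after filterByExpr and TMM scaling. Each experiment had its own fit, with batch as a term. P-values were adjusted over all genes tested, and a gene was called at an adjusted p under 0.05. The SE is approximate, the size of the log2 fold change over the square root of F. Means of log2 levels used a pseudocount of 1. The test was checked on simulated counts with 200 changed genes. Replicate libraries were not duplicates, with a chi-square per degree of freedom of 15.4 to 121 over 32 pairs. DESeq2 1.42.0 and other filters, scalings, covariates and left-out libraries were alternatives. Promoter windows came from RefSeq GRCm38.p6, were matched by symbol, and 32 of 35 ended in the sense sequence of an annotated transcript of the gene over 40 bases.

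The members, lists and tests were chosen with earlier results of these data known. All members could be named. Values per library were planned for the first 2 symbols of each role, for up to 4 called members of the greatest fold per direction and for those nearest the threshold. Not all of these are printed for every comparison. Further values were chosen after they were seen. The values of 1 pathway gene are not reported here.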

Additional observations from a re-analysis of the deposited data

Results flagged for a closer look

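Values of each of the 47 members and of the 2 class means were examined within each Tomato group of 4 or 5 libraries for a library that stood apart by Dixon's criterion, which chance meets in about 1 in 20 groups. Of 147 groups of values, 3 met it. In Tomato libraries at 14 dpi, replicate 1 had 65.8 CPM of Ifit1, while the other 3 libraries had 31.0 to 33.0 CPM, and 73.4 CPM of Ifi27l2a, while the others had 39.4 to 43.6 CPM. The same library was the highest of the 14 dpi libraries for 33 of the 46 tested members. At 7 dpi, replicate 2 had 18.5 CPM of Mx2, while the other 4 libraries had 6.46 to 8.66 CPM.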

How the results depend on the processing

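No paired analysis was possible because the labels give no replicate number shared between groups. No called member changed sign in any alternative. For members lower at 7 dpi (27), batch 1133 alone gave 8 and the perineurial covariate 4, and leaving out 1 library gave 22 to 30 lower and 0 to 1 higher. For members lower at 14 dpi (11), DESeq2 gave 18, the stricter low-count filter 17 and batch 1133 alone 1, and leaving out 1 library gave 8 to 15 lower and 0 to 1 higher. For members higher at 14 dpi than at 7 dpi (5), DESeq2 and the stricter filter gave 11 each, RLE factors and library size alone 8 each, and no filter, the 2 groups alone and the endothelial covariate 9 each. No batch term gave 2, batch 1133 alone 0, batch 1292 alone 3, the perineurial covariate 0, and leaving out 1 library 2 to 6. For members higher in KO (11), DESeq2 gave 22, no filter 19, ComBat-Seq counts 24, each batch alone 6, the endothelial covariate 6, no batch term 0, the Y-linked covariate 0, and leaving out 1 library 0 to 11. A filter by group size, added with the endothelial covariate after seeing the data, gave 10. A batch alone and a left-out library use fewer samples, and for the other settings the cause was not tested. The number of calls over all genes changed with the setting too, as given above for several fits. Of the 27 members lower at 7 dpi, 21 kept their call without any 1 library, as did 8 of 11 at 14 dpi, 2 of 5 between the times and 0 of 11 in KO. Oas3, Mx1 and Oas1g averaged at most 2.02 CPM in every group, and the lack of a call does not show that they were unchanged. The size of difference that could be detected at such levels was not tested.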
